A study of Mus musculus with 2 samples.

Results

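The genes described here encode 44 receptor chains for interleukins, interferons and colony-stimulating factors. They were chosen by name, as the cytokine receptor chains of a fixed symbol list, and not by their values. All 44 symbols were found, each as 1 of the 55487 genes counted. RNA was sequenced from 2 samples of mouse Langerhans cells, which take up and present antigen in the epidermis and which the series title calls monocyte-derived. Both samples had the genotype HTR2A-/-, which removes the serotonin 2A receptor, and both received imiquimod, an agonist of Toll-like receptor 7, together with a-CD40L (as the labels spell it) for 24 hours. The cells came from digested ears and were sorted for CD207 and MHC II before that exposure. The labels give no strain, age, sex or number of animals, and nothing says that the samples came from separate mice. The samples form 1 group without untreated or wild-type cells, so every value is a level in stimulated knockout cells or a difference between these 2 libraries, and no value is an effect of genotype or treatment.

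Most cytokine receptors pair a chain that binds the ligand with a chain that several receptors share, such as the common gamma chain (Il2rg), the common beta chain (Csf2rb) or gp130 (Il6st). Their intracellular parts carry JAK kinases, which phosphorylate STAT transcription factors, and SOCS proteins limit the signal. The chains for IL-17, IL-18, IL-33 and IL-36 signal through adaptors such as Act1 and MyD88 instead. In skin, Langerhans cells respond to GM-CSF and TSLP, while receptors for IL-20 and IL-22 are known chiefly from keratinocytes.

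Library 1 held 69925160 counts and library 2 held 42264685. Levels are CPM, a count scaled to the library total. Receptor genes are ranked and paired per kb of exon. The leading genes of the other lists are ranked by mean CPM, which is not corrected for length. The background limit was the 95th percentile of 1135 olfactory receptor genes, which these cells are not known to use, at 0.761 CPM per kb in library 1 and 1.58 in library 2. The targeted gene Htr2a lay below these limits, at 0.196 and 0.494 CPM per kb, with 77 and 117 counts; which part of the gene is deleted is not stated, so this does not check the label. Of the Langerhans cell markers 9 of 10 were above background in both libraries, and Cd207, the marker of the sort, was at 1125 and 1052 CPM. Of the keratinocyte markers 11 of 12 were too, and their summed level was 4700 CPM (library 1) and 16347 CPM (library 2). Because the RNA is a bulk sample, fewer cells of a type and less RNA per cell cannot be told apart in any value below.

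Both libraries had 34 of the 44 receptor genes above background, and library 1 alone had another 2 (Il2ra and Il18r1). Among all 21897 protein-coding genes with this measure the share was 47.4%. The 8 genes above background in neither library were Il9r, Il13ra2, Il5ra, Il27ra, Il31ra, Il17rb, Il17rd and Il1rl1. The lowest that passed in both were Il22ra1, at 0.985 and 1.95 CPM per kb, and Il17re, at 1.12 and 1.80 CPM per kb. Just outside were Il18r1, at 3.57 and 1.46 CPM per kb, and Il2ra, at 3.89 and 1.26 CPM per kb.

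**Figure D1:**
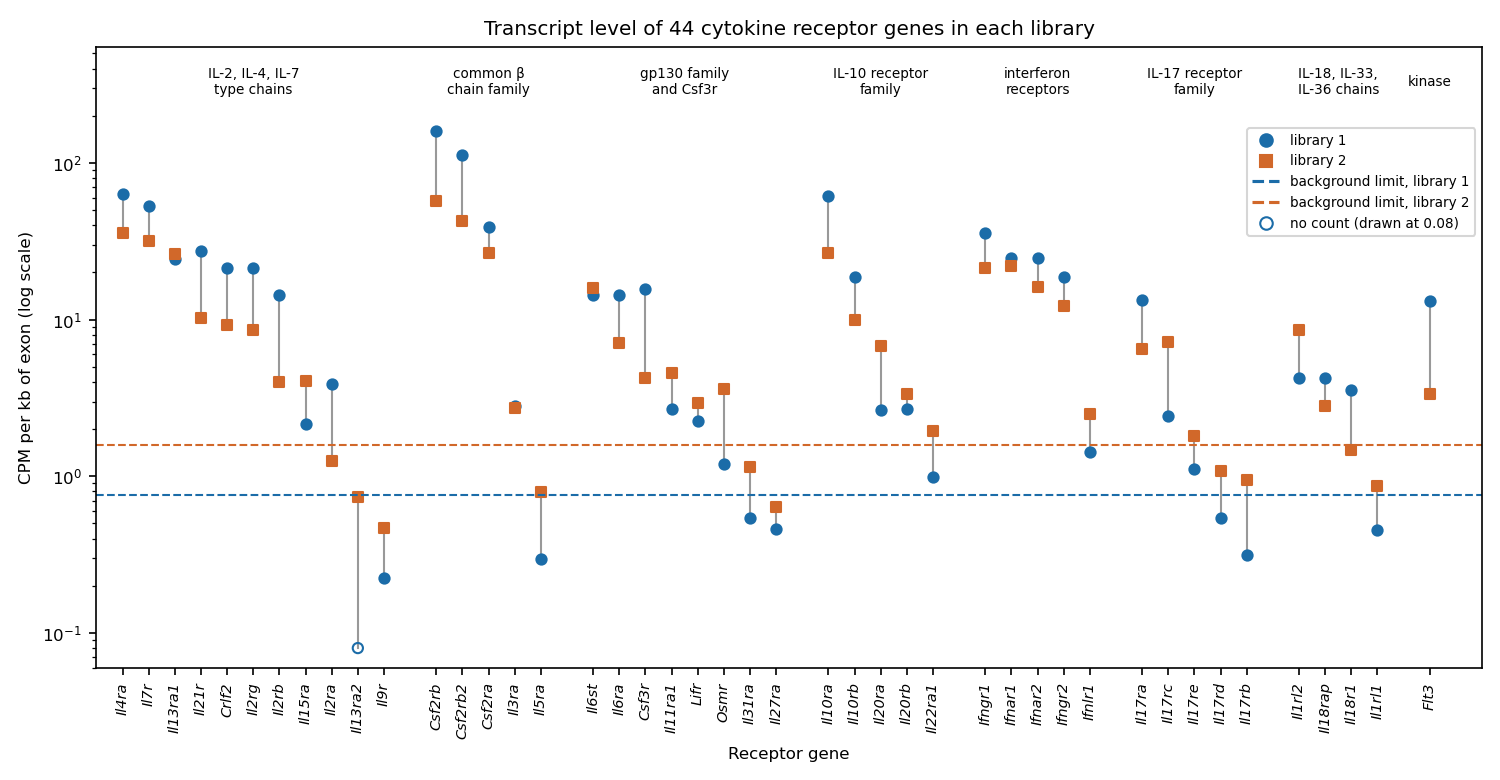
Level of each of the 44 receptor genes in CPM per kb of exon (log axis), grouped by receptor family and ordered within a family by the mean of the 2 libraries. Circles are library 1 and squares library 2, and dashed lines mark the background limits of 0.761 and 1.58 CPM per kb. Csf2rb and Csf2rb2 are highest in both libraries, and 8 genes lie below the limit of the library in each; the open circle marks Il13ra2, with 0 counts in library 1.

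The beta chain genes Csf2rb and Csf2rb2 were the most abundant of the group. Csf2rb encodes the beta chain shared by the receptors for GM-CSF, IL-3 and IL-5 (ENSMUSG00000071713, GRCm38 chromosome 15, 78325752 to 78353847, plus strand). It was at 1166 CPM (library 1) and 413 CPM (library 2), or 790 ± 533 CPM (SD, n = 2). Csf2rb2, a neighbouring copy that in mice encodes a beta chain dedicated to IL-3 (chromosome 15, 78282507 to 78305721, minus strand), was at 531 and 202 CPM, or 366 ± 232 CPM. Per kb these genes ranked first and next among the 44 in both libraries, and Csf2rb was at percentile 99.4 and 97.9 of protein-coding genes. Both genes were lower in library 2. The ratio of Csf2rb to Csf2rb2 per kb was 1.43 (95% interval 1.41 to 1.45) in library 1 and 1.33 (1.30 to 1.37) in library 2.

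The copies are alike enough to bear on these counts. Their coding sequences were 95.2% identical over 2628 aligned bases, with an identical stretch of 242 bases. Of the 50-base words in the transcripts, 12.3% of those of Csf2rb and 18.9% of those of Csf2rb2 also occur in another gene, so part of the reads could have been credited to either copy. The 90 coding bases in which they differ most are shown because reads there can be assigned. Capitals mark the 16 bases that differ, in GENCODE M21 transcripts on GRCm38 at chr15:78338897-78338986 (plus strand) and chr15:78294345-78294434 (minus strand), each within 1 exon.
Csf2rb: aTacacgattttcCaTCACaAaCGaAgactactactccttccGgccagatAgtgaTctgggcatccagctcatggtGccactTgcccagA
Csf2rb2: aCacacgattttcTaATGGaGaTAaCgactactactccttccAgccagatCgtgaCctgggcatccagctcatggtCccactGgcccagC

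Of the ligand-binding chains that join the beta chain, Csf2ra was the highest in both libraries. Csf2ra, the GM-CSF-specific chain (chromosome 19, 61223957 to 61228429, minus strand), was at 113 CPM (library 1) and 76.7 CPM (library 2), or 94.7 ± 25.5 CPM (SD, n = 2). Il3ra, the IL-3-specific chain, was at 8.34 and 8.09 CPM. Il5ra, the IL-5-specific chain, was at 1.06 and 2.82 CPM and lay within background in both libraries. Per kb, Csf2rb exceeded Csf2ra 4.08 times in library 1 (95% interval 3.99 to 4.18) and 2.13 times in library 2 (2.05 to 2.21). It exceeded Il3ra 57.0 and 20.8 times. The order Csf2rb, Csf2ra, Il3ra, Il5ra was thus the same in both libraries.

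Among the chains for IL-2, IL-4, IL-7 and related cytokines, Il4ra and Il7r led. Il4ra, the chain shared by both IL-4 receptors and the IL-13 receptor (ENSMUSG00000030748, chromosome 7, 125552120 to 125579474, plus strand), was at 383 CPM (library 1) and 214 CPM (library 2), or 298 ± 119 CPM (SD, n = 2). Il7r, which serves both IL-7 and TSLP (chromosome 15, 9505788 to 9530176, minus strand), was at 249 and 148 CPM, or 198 ± 71.6 CPM. Both were higher in library 1, and per kb they held ranks 3 and 5 of the 44 there and ranks 3 and 4 in library 2. Of the exons of Il4ra 571 bases overlap the antisense gene Gm44876, which had 181 and 64 counts against 26780 and 9044 for Il4ra.

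Partners of these chains were present at lower levels. Crlf2, the TSLP-specific chain (chromosome 5, 109554709 to 109558993, minus strand), was at 31.8 CPM (library 1) and 13.7 CPM (library 2). Il13ra1, which pairs with Il4ra to bind IL-13, was at 90.8 and 97.7 CPM, or 94.2 ± 4.88 CPM (SD, n = 2), and was among the steadiest of the group in CPM. Il2rg, the common gamma chain (chromosome X, 101264378 to 101268255, minus strand), was at 51.0 and 20.4 CPM, and 27.5% of its 50-base words also occur in Gm20489, which had 2 and 6 counts. Of these partners, Crlf2 and Il2rg were higher in library 1, and Il13ra1 was nearly level in CPM. For Il13ra2, a decoy receptor for IL-13, 0 reads were counted in library 1 and 71 in library 2. Taking 3 counts as the limit that 0 allows per library, this is at least 39.2-fold higher in library 2, but the level there, 0.736 CPM per kb, lay within background.

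The chains for lymphocyte cytokines were unequal. Il21r, the IL-21-specific chain, was at 91.1 CPM (library 1) and 34.1 CPM (library 2), or 62.6 ± 40.3 CPM (SD, n = 2). Il2rb, the beta chain for IL-2 and IL-15, was at 61.6 and 17.2 CPM, and Il2ra, the high-affinity IL-2 chain (CD25), at 22.2 and 7.17 CPM. Il15ra, which presents IL-15 to neighbouring cells, was at 9.52 and 18.1 CPM and so had the opposite order. Il9r, at 1.12 and 2.32 CPM, lay within background. Of the T and NK cell markers 8 of 12 were above background in both libraries, and their summed level was 252 CPM (library 1) and 145 CPM (library 2). By mean CPM, Thy1 (30.9 and 68.3 CPM), Cd3g (65.1 and 16.2 CPM) and Trdc (42.5 and 15.4 CPM) led, and Thy1 had the opposite order to the sum. Their part in the levels of Il2ra, Il2rb, Il2rg and Il7r was not tested.

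In the gp130 family the shared chain had similar CPM in both libraries, and its most abundant partner, Il6ra, did not. Il6st, which encodes gp130 (ENSMUSG00000021756, chromosome 13, 112464070 to 112510086, plus strand), was at 159 CPM (library 1) and 178 CPM (library 2), or 168 ± 13.3 CPM (SD, n = 2). Il6ra, the IL-6-binding chain, was at 123 and 61.1 CPM. Per kb the ratio of Il6ra to Il6st was 0.997 (95% interval 0.969 to 1.03) in library 1, an interval that includes 1, and 0.442 (0.423 to 0.462) in library 2. Per kb the pair was thus level in library 1 within counting error, and Il6st was higher in library 2. These ratios rest on the union of annotated exons, and which transcripts were used was not tested.

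The other partners of gp130 were scarcer than Il6ra. Osmr, the oncostatin M-specific chain (chromosome 15, 6813577 to 6874969, minus strand), was at 14.6 CPM (library 1) and 43.7 CPM (library 2), or 29.2 ± 20.6 CPM (SD, n = 2). Lifr, the LIF-binding chain, was at 24.4 and 31.4 CPM, and Il11ra1, the IL-11-binding chain, at 12.0 and 20.4 CPM. All 3 had more CPM in library 2, unlike Il6ra. For Il11ra1 46.3% of the 50-base words of its transcripts also occur in another gene, chiefly Gm13305, so its level is uncertain. Il27ra and Il31ra, the specific chains for IL-27 and IL-31, lay within background, at 0.462 and 0.636 CPM per kb for Il27ra and 0.542 and 1.14 CPM per kb for Il31ra.

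Csf3r, the G-CSF receptor (chromosome 4, 126024550 to 126044440, plus strand), was at 56.3 CPM (library 1) and 15.2 CPM (library 2), or 35.7 ± 29.0 CPM (SD, n = 2). It is best known from neutrophils, and 7 of 8 neutrophil markers were above background in both libraries. Their summed level went the other way, 307 CPM (library 1) and 629 CPM (library 2), with S100a9 and S100a8 making up most of it. By the exact binomial test 3 of these markers, Mmp8 (29.9 and 10.0 CPM), Mmp9 (20.2 and 13.7 CPM) and Retnlg (3.95 and 3.22 CPM), were lower in library 2 as Csf3r was, and 2, S100a8 and S100a9, were higher, with a median log2 ratio of 0.02 over the 7 tested. Among protein-coding genes above background in both libraries 65.8% were lower by this test and 22.0% higher. Markers below the top 3 by mean CPM are named here after their values were seen. The part of neutrophil RNA in the level of Csf3r was not tested. Of the remaining listed markers, Cxcr2 and Ly6g (1.24 and 2.11 CPM) were above background in both libraries, without a called difference. Elane, at 0 and 0.379 CPM, was above background in neither and was not tested. Flt3, the receptor kinase for FLT3 ligand that guides dendritic cell development (chromosome 5, 147330741 to 147400489, minus strand), was at 81.5 and 20.7 CPM, and was lower in library 2 as well. Both genes were thus over 3 times higher in library 1, with CPM ratios of 3.70 for Csf3r and 3.95 for Flt3.

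The interferon receptors for type I and type II interferons were expressed through both chains. Ifnar1 (ENSMUSG00000022967, chromosome 16, 91485238 to 91507441, plus strand) was at 148 CPM (library 1) and 132 CPM (library 2), or 140 ± 11.5 CPM (SD, n = 2). Ifnar2, its partner on the same chromosome (91372783 to 91405589, plus strand), was at 82.2 and 53.9 CPM. Per kb, Ifnar1 and Ifnar2 stood at a ratio of 1.01 (95% interval 0.975 to 1.04) in library 1 and 1.37 (1.30 to 1.44) in library 2. Per kb of annotated exon the chains were therefore level in library 1 within counting error and unequal in library 2.

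Ifngr1, the ligand-binding chain for interferon gamma (chromosome 10, 19591949 to 19610229, plus strand), was at 102 CPM (library 1) and 60.5 CPM (library 2). Ifngr2, its signalling partner (chromosome 16, 91547072 to 91565623, plus strand), was at 70.7 and 46.4 CPM. Ifngr1 exceeded Ifngr2 per kb in both libraries, 1.91 times (95% interval 1.84 to 1.98) and 1.73 times (1.63 to 1.83). Ifnlr1, the chain specific to interferon lambda, a cytokine that acts mainly on epithelia, was far lower at 5.95 and 10.4 CPM.

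Il10ra, the binding chain of the IL-10 receptor (ENSMUSG00000032089, chromosome 9, 45253837 to 45269149, minus strand), was at 214 CPM (library 1) and 92.5 CPM (library 2), or 153 ± 86.0 CPM (SD, n = 2). Il10rb, which the receptors for IL-10, IL-22 and interferon lambda share, was at 71.1 and 37.7 CPM. Per kb, Il10ra exceeded Il10rb 3.28 times in library 1 (95% interval 3.17 to 3.38) and 2.67 times in library 2 (2.52 to 2.84). Both chains were higher in library 1.

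The IL-20 and IL-22 receptor chains, known from keratinocytes, were low and had another pattern. Il20ra was at 6.42 CPM (library 1) and 16.5 CPM (library 2), and Il20rb at 11.3 and 14.1 CPM. Il22ra1, the IL-22-specific chain, was at 2.53 CPM (95% Poisson interval 2.17 to 2.93) and 5.02 CPM (4.36 to 5.74). All 3 had more CPM in library 2, where the summed keratinocyte markers were 3.48 times as high as in library 1. The background was higher in library 2 as well, with a median of the olfactory receptor genes of 0.221 (library 1) and 0.645 CPM per kb (library 2). Il22ra1 lay close to the background limit, at 0.985 and 1.95 CPM per kb, and did not pass the 99th percentile limit. The parts of keratinocyte RNA and of background in these levels were not tested.

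In the IL-17 receptor family, Il17ra, the chain shared by the family (ENSMUSG00000002897, chromosome 6, 120463247 to 120487559, plus strand), was at 115 CPM (library 1) and 56.5 CPM (library 2), or 85.7 ± 41.2 CPM (SD, n = 2). Il17rc, which joins it to bind IL-17A and IL-17F (chromosome 6, 113471427 to 113483140, plus strand), was at 6.49 and 19.3 CPM, or 12.9 ± 9.03 CPM. The order of the pair turned: per kb, the ratio of Il17ra to Il17rc was 5.45 (95% interval 4.96 to 6.0) in library 1 and 0.905 (0.836 to 0.982) in library 2. Il17re, the IL-17C-specific chain, was just above background, at 6.55 and 10.6 CPM. Il17rb, the IL-25-specific chain, and Il17rd, a modulator of the family, lay within background.

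Of the chains related to the IL-1 receptor, Il1rl2, the IL-36 receptor (ENSMUSG00000070942, chromosome 1, 40324610 to 40367562, plus strand), was at 28.9 CPM (library 1) and 58.3 CPM (library 2), or 43.6 ± 20.8 CPM (SD, n = 2). Il18rap, the accessory chain for IL-18, was at 28.7 and 19.1 CPM, and Il18r1, the IL-18-binding chain, at 17.2 and 7.05 CPM. Per kb, Il1rl2 and Il18rap were level within counting error in library 1, with a ratio of 0.997 (95% interval 0.937 to 1.06). In library 2 the ratio was 3.03 (2.80 to 3.29). Il1rl1, the IL-33 receptor ST2, lay within background at 3.15 and 6.01 CPM. Mast cells are a known source of ST2. Of their markers 2 of 8 were above background in both libraries and 3 of 8 in library 1. Their part in the level of Il1rl1 was not tested.

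Promoters are shown for 2 chains that were lower in library 2, Csf2rb2 and Crlf2, and 2 that were higher, Il22ra1 and Il1rl2, because their levels moved apart. Each is the 250 bases before the RefSeq start (build GRCm38.p6, 5′ to 3′ on the gene's strand), and none holds an exon of GENCODE M21. Capitals mark matches on either strand to a PU.1 core (GAGGAA), an AP-1 motif (TGANTCA), a GAS motif bound by STAT factors (TTCNNNGAA) or an ISRE core, where matches to different motifs may overlap. The windows are chr15:78305722-78305971 (minus strand) for Csf2rb2, chr5:109558994-109559243 (minus) for Crlf2, chr4:135727909-135728158 (plus) for Il22ra1 and chr1:40324339-40324588 (plus) for Il1rl2.
Csf2rb2: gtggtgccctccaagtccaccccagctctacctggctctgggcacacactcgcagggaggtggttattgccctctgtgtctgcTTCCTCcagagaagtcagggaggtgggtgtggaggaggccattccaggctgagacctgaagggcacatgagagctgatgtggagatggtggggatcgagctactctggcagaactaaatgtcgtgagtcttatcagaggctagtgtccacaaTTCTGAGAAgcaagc
Crlf2: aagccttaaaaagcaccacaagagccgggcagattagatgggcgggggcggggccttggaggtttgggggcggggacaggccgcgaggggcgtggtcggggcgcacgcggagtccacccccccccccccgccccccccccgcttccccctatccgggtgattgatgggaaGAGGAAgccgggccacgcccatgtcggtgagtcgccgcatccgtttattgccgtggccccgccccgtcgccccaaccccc
Il22ra1: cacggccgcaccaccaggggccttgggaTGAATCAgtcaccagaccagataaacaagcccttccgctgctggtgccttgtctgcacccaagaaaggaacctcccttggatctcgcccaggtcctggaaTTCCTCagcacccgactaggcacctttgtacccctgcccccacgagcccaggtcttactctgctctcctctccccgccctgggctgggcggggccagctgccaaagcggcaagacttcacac
Il1rl2: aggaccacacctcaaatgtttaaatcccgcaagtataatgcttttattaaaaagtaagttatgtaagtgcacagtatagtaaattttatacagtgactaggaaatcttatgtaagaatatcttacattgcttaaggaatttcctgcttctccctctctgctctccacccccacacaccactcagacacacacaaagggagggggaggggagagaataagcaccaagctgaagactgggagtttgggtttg

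RefSeq promoters were matched for 38 of the 44 genes, as 44 windows. The PU.1 core occurred in 34.1% of these windows, against 23.3% of all 32851 promoter windows of the same length. The AP-1 motif occurred in 13.6%, against 6.75%, in Il13ra2, Il15ra, Il5ra, Il20ra, Il22ra1 and Il17rb. The GAS motif occurred in 11.4%, against 7.02%, in Il7r, Csf2rb2, Il31ra, Ifnar2 and Il18r1. The ISRE core occurred in 0 of the 44 windows, against 2.98% of all. These are matches of letters in a short window and were not tied to the levels by a test.

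Most receptors in which these chains combine had every chain above background. Of 28 complexes 21 did in both libraries, and 23 did in library 1. The 7 others were the receptors for IL-9, IL-5, IL-27, IL-31 and IL-25, each for want of its specific chain, and the high-affinity IL-2 receptor and the IL-18 receptor, whose Il2ra and Il18r1 fell short in library 2. The scarcest chain per kb was the same in both libraries for 25 of 28 complexes. It differed for the IL-15 receptor, the IL-20 type I receptor and the IL-17A and IL-17F receptor. In the IL-15 receptor the scarcest chain was Il15ra in library 1, at 2.14 CPM per kb, and Il2rb in library 2, at 4.02 CPM per kb, where Il15ra and Il2rb stood at a ratio of 1.01 (95% interval 0.913 to 1.12).

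The abundance of the scarcest chain set the complexes apart. In the GM-CSF receptor it was Csf2ra, at 39.3 CPM per kb in library 1 and 26.7 CPM per kb in library 2. In the IL-4 and IL-13 type II receptor it was Il13ra1, at 24.5 and 26.3 CPM per kb, and in the type I interferon receptor Ifnar2, at 24.7 and 16.2 CPM per kb. These 3 had the highest scarcest chain of the 28 in library 1 and in library 2. The TSLP receptor was limited in transcripts by Crlf2, at 21.2 and 9.18 CPM per kb, and Il7r exceeded it 2.51 times (95% interval 2.40 to 2.63) and 3.45 times (3.17 to 3.76). In the IL-22 receptor, which had both chains above background, the scarcest was Il22ra1. It stood at 0.985 and 1.95 CPM per kb, and Il10rb exceeded it 19.0 and 5.07 times.

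**Figure D2:**
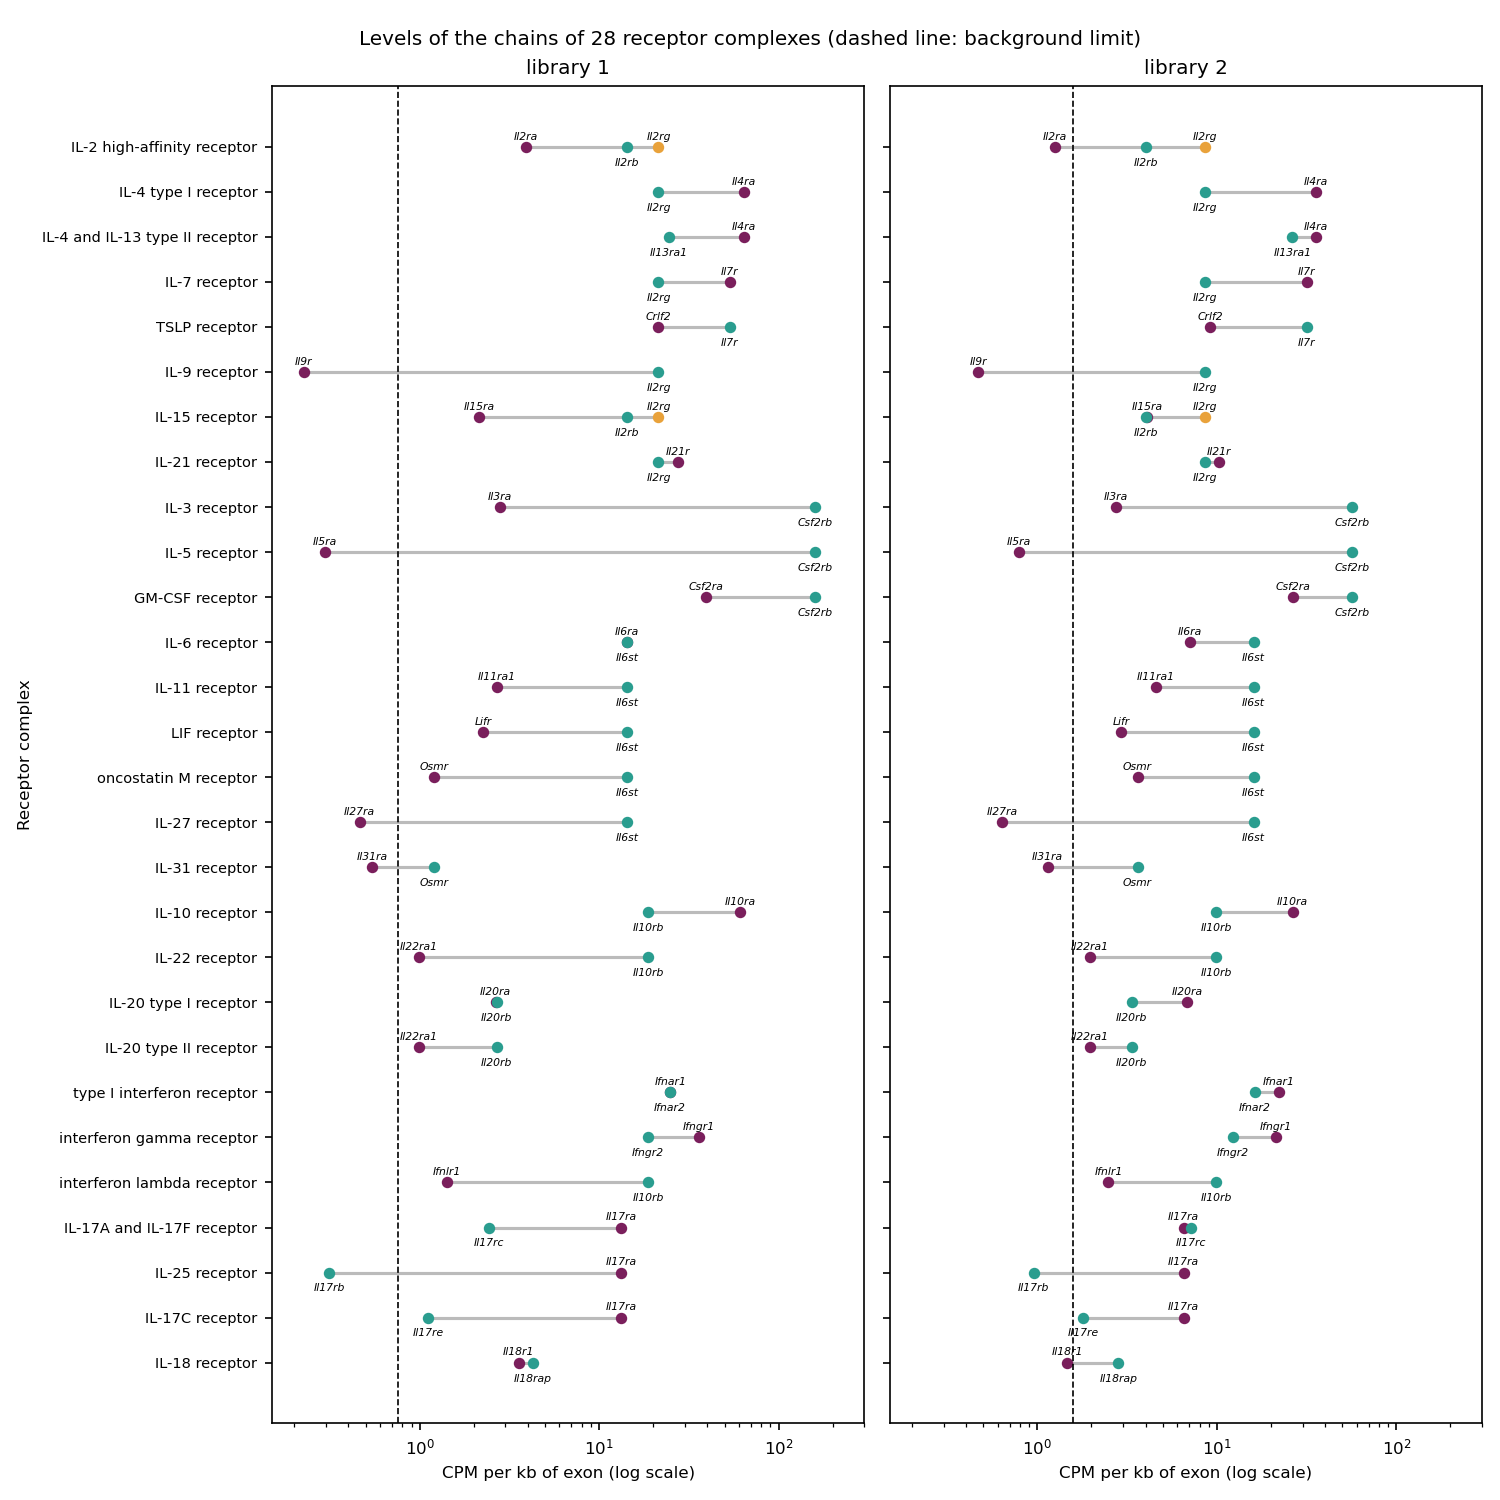
Levels of the chains of 28 receptor complexes in CPM per kb of exon (log axis), library 1 on the left and library 2 on the right; each row is a complex, each point a chain, and the dashed line is the background limit. Chains of the GM-CSF, IL-4, type I interferon and interferon gamma receptors lie well above the limit in both libraries, while the specific chains for IL-5, IL-9, IL-25, IL-27 and IL-31 lie below it.

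The 2 libraries were compared gene by gene with edgeR's exact binomial test, in which only sampling noise is allowed for and no condition is compared. Of the 44 receptor genes 42 differed after Benjamini-Hochberg adjustment over all 30356 genes tested, where 80.3% of genes differed, so the count itself is near the background. In direction, 27 were lower in library 2 (36.1% of all genes tested) and 15 higher (44.2%). At least 2-fold differences were found for 21 lower genes (12.6% of all tested) and 4 higher genes (24.5%). Among protein-coding genes above background in both libraries, 65.8% were lower, 22.0% higher, 20.7% at least 2-fold lower and 4.97% at least 2-fold higher. The median log2 ratio of library 2 over library 1 was -0.61 over the 44 genes, 0.15 over all genes tested and -0.43 over those protein-coding genes. Of the 34 receptor genes above background in both libraries, 25 were lower and 8 higher. At least 2-fold differences were found for 19 of these lower genes and 2 of these higher genes, and the median log2 ratio of the 34 was -1.10. These ratios are scaled by TMM, which shifts each by -0.50 against total counts. With total counts 22 receptor genes were lower and 21 higher. Of all 30356 genes tested, 6220 were then lower and 19622 higher. With a dispersion of 0.16 in edgeR's exact test in place of 0, which allows for spread beyond sampling, 1 of the 44 genes still differed. This was Il13ra2, which lay within background. With 0.04 there were 24. Of all 30356 genes tested, 1981 differed at 0.16 and 10189 at 0.04. Taken as 1 group, the 2 libraries had a biological coefficient of variation, the square root of the dispersion, of 0.638. Both settings therefore allow for less spread than these libraries showed.

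**Figure D3:**
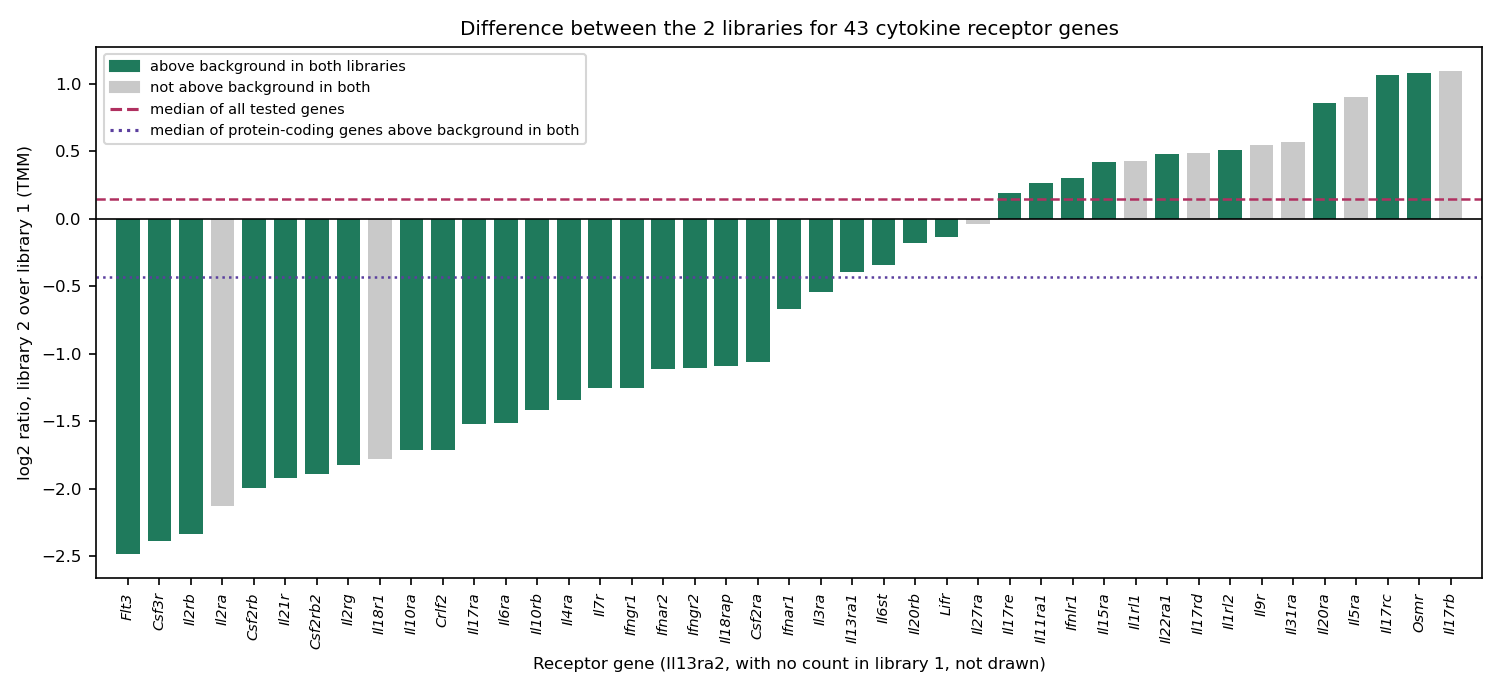
Log2 ratio of library 2 over library 1 (TMM-scaled) for 43 receptor genes, in order of the ratio; Il13ra2 is not drawn. Green bars are genes above background in both libraries and grey bars the others, and lines give the medians of all tested genes (0.15) and of protein-coding genes above background (-0.43). Flt3 (-2.48) is lowest, and Il17rb (1.09), Osmr (1.08) and Il17rc (1.07) are highest.

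By family, the chains for IL-2, IL-4, IL-7 and related cytokines stood at -1.34 (median log2 ratio), and 8 of 11 were lower in library 2 by the exact binomial test while 3 were higher (Il15ra and, within background, Il9r and Il13ra2). The beta chain family had a median of -1.06, with 4 of 5 lower, and the interferon receptors -1.11, with 4 of 5 lower and Ifnlr1 higher. The IL-10 receptor family had -0.18, with 3 of 5 lower and Il20ra and Il22ra1 higher. The gp130 family with Csf3r had -0.09, with 4 of 8 lower, 3 higher and Il27ra within sampling noise. The IL-17 receptor family had 0.49, with Il17ra lower, 3 of 5 higher and Il17re within sampling noise, and the IL-1 receptor relatives -0.33, with 2 of 4 lower and 2 higher. The difference was unequal within a receptor too, with a log2 ratio of -1.52 for Il17ra and 1.07 for its partner Il17rc. For scale, 36.1% of all genes tested were lower and 44.2% higher by the exact binomial test, with a median log2 ratio of 0.15. Among protein-coding genes above background in both libraries 65.8% were lower and 22.0% higher, with a median of -0.43. Several of the family counts lie near these shares. No test compared the families with each other.

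The genes with the lowest ratios were Flt3 (-2.48), Csf3r (-2.39), Il2rb (-2.34), Il2ra (-2.13) and Csf2rb (-2.00). The highest among those above background in both libraries were Osmr (1.08), Il17rc (1.07), Il20ra (0.86), Il1rl2 (0.51) and Il22ra1 (0.48). For Il1rl2 the adjusted p of edgeR's exact binomial test was 1.12e-31, but at a dispersion of 0.04 it was 0.348. Il13ra1 (-0.40), Il6st (-0.34), Lifr (-0.13) and Il20rb (-0.18) were lower with TMM and higher with total counts, so their direction depends on the scaling. Il27ra (adjusted p = 0.904) and Il17re (adjusted p = 0.0606) were the 2 genes that this test did not call.

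Marker lists moved between the libraries as well. The summed Langerhans cell markers were at 21684 CPM (library 1) and 11732 CPM (library 2), the mature dendritic cell markers at 3268 and 879 CPM, and the monocyte and macrophage markers at 1438 and 677 CPM. By the exact binomial test with TMM scaling 9 of 10 Langerhans cell markers were lower in library 2 and 1 was higher. Cd207, the marker of the sort, was nearly level in CPM, unlike the sum of its list. Of the keratinocyte markers 11 of 12 were higher in library 2 by the exact binomial test, with a median log2 ratio of 1.33. Among protein-coding genes above background in both libraries 65.8% were lower by this test and 22.0% higher. The other lists were at 119 and 53.4 CPM (fibroblast, 0 of 8 above background in both libraries), 84.5 and 48.4 CPM (endothelial, 1 of 6), 64.7 and 44.5 CPM (mast cell, 2 of 8) and 47.1 and 21.7 CPM (B cell, 1 of 7). These 4 lists, like the T and NK cell markers, had lower sums in library 2, and the keratinocyte and neutrophil sums were higher. The part of these cell types in the receptor differences was not tested.

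**Figure D4:**
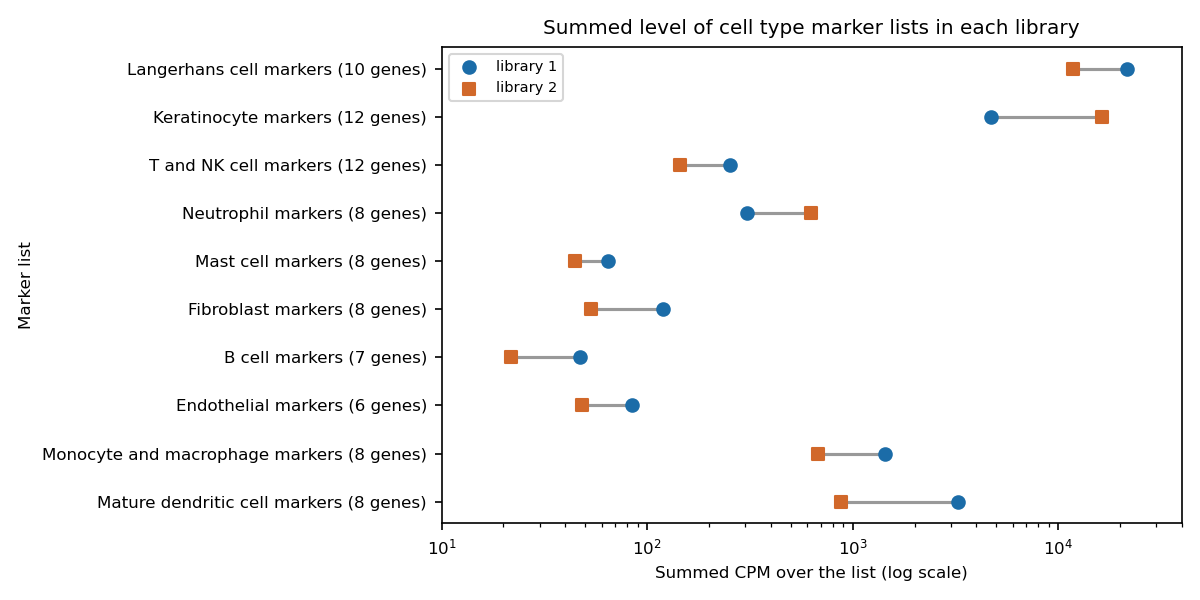
Summed CPM of each cell type marker list (log axis) in library 1 (circles) and library 2 (squares). Keratinocyte markers are higher in library 2 (16347 against 4700 CPM) and mature dendritic cell markers higher in library 1 (3268 against 879 CPM).

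The signalling genes downstream of the receptors were nearly all above background. Of the JAK kinases 3 of 4 were in both libraries, led by Jak2 (483 CPM (library 1) and 156 CPM (library 2)), Jak1 (314 and 234 CPM) and Tyk2 (61.1 and 29.3 CPM). Jak3, the kinase bound to the common gamma chain, was at 25.3 and 7.05 CPM and within background in library 2; it is named here after its values were seen. Of the STAT genes 7 of 7 were above background, led by Stat3 (452 and 307 CPM), Stat6, which IL-4 activates (141 and 88.1 CPM), and Stat5a, which GM-CSF activates (123 and 71.9 CPM). All 4 JAK and all 7 STAT genes were lower in library 2 by the exact binomial test, with median log2 ratios of -1.85 and -1.18. Among protein-coding genes above background in both libraries 65.8% were lower, with a median of -0.43.

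Of the SOCS inhibitors 7 of 8 were above background in both libraries. Socs3, an inhibitor that binds gp130, was at 615 CPM (library 1) and 149 CPM (library 2), and Cish, a STAT5 target, at 153 and 65.0 CPM. Socs4 was at 38.3 and 48.7 CPM. By the exact binomial test with TMM scaling 65.8% of protein-coding genes above background in both libraries were lower in library 2. Of the SOCS genes 7 of 8 were lower, and Socs6 was within sampling noise. Of the 7, Socs4 had more CPM in library 2, so its direction turns with total counts. Of the adaptors for IL-17 and IL-1 type receptors 6 of 6 were above background, led by Irak2 (113 and 62.7 CPM), Traf6 (63.6 and 63.7 CPM) and Myd88 (83.4 and 39.6 CPM). With TMM scaling 5 of these adaptors were lower, of which Traf6 was level in CPM and so is not lower with total counts, and 1 was higher, Traf3ip2, which encodes Act1 (11.2 and 30.6 CPM; named after its values were seen).

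Ligand genes of the same receptors were mostly scarce, and 14 of 39 were above background in both libraries. The highest were Il33, at 19.7 CPM (library 1) and 271 CPM (library 2), Osm, at 69.2 CPM in library 1 and lower in library 2, and Tslp, at 4.76 and 64.9 CPM. Tslp was thus 13.6 times as high in library 2 by CPM, while Crlf2, its receptor chain, was 2.31 times as high in library 1. Osm and its chain Osmr also had opposite orders, since Osm was 3.46 times as high in library 1 and Osmr had a log2 ratio of 1.08. Il10 was at 23.8 and 19.3 CPM, Il18 at 17.3 and 22.1 CPM, and the IL-36 gamma gene (Il1f9 in the annotation) at 14.9 and 44.7 CPM. By CPM the IL-36 gamma gene and Il1rl2 were both higher in library 2, and Il10 and Il10ra both higher in library 1. Il18 and Il18r1 had opposite orders. A link between ligand and receptor levels was not tested. Of the GM-CSF, IL-7 and IL-4 genes, Csf2 was at 0.815 and 2.20 CPM, and Il7 and Il4 lay within background. Of the 29 ligand genes tested, 12 were lower and 16 higher in library 2 by the exact binomial test with TMM scaling, with a median log2 ratio of 0.45. Il18, 1 of the 12, had more CPM in library 2 and turns with total counts. Among all genes tested 36.1% were lower and 44.2% higher. Of the 39 ligand genes 13 were above background in neither library. The median of the olfactory receptor genes was itself higher in library 2 (0.221 and 0.645 CPM per kb), as were the summed keratinocyte markers (4700 and 16347 CPM). The parts of both in these ratios were not tested.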

How the data were processed

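RNA from sorted, stimulated Langerhans cells was sequenced in 2 libraries from 10 to 70 ng of RNA with a SMARTer stranded pico kit, per the labels' protocols. The authors deposited raw counts, as whole numbers for each Ensembl gene. Per the submitters' processing notes, Trimmomatic, HISAT2, SAMtools and StringTie were used with the build GRCm38; their versions, and the annotation, strand setting and counting unit, are not stated, so antisense and overlapping genes cannot be told apart. The column without a replicate number is called library 1, and the column numbered 2 is library 2. The 2 rows without an identifier (1 blank, 1 equal to the totals) were left out.

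Symbols and exon lengths (union of exons) came from GENCODE M21, for 55141 rows. CPM is the count over the library total; SDs are over 2 libraries. Intervals (95%, exact Poisson, or Clopper-Pearson for ratios) cover counting error only. Rows were summed by symbol, and genes reaching 1 CPM in either library were compared with edgeR 4.0.16 (R 4.3.3): TMM scaling, exact binomial test (the exact test at a dispersion of 0), Benjamini-Hochberg adjustment at 0.05, and log2 ratios with a prior count of 1. The test was checked on simulated counts with sampling noise alone, so the check does not cover spread between libraries. P-values measure only the difference between these libraries, which may be technical.

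Alternatives were DESeq2 1.42.0 size factors, total counts, other filters, dispersions of 0.04 and 0.16, background subtraction, other background limits and each library alone. All 44 members could be named; of other lists, the 3 highest by mean CPM and ligands of named receptors. Members, lists, motifs and complexes were chosen with earlier results of these data known.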

Additional observations from a re-analysis of the deposited data

How the results depend on the processing

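The number of receptor genes above background, 34, was 31 at the 99th percentile, 35 with vomeronasal receptor genes as background, 38 by CPM without length and 43 with a limit of 1 CPM. Complexes with every chain above background, 21, numbered 17, 22, 22 and 28 in the same order. Each library alone gave 34 to 36 genes and 21 to 23 complexes, and a median level of 19.8 to 28.8 CPM over the 44 genes. Of the 42 genes that differed between the libraries, 24 did at a dispersion of 0.04 (21 lower and 3 higher in library 2). At 0.16 there was 1 (0 lower and 1 higher), since these dispersions allow for spread between replicates. Of all 30356 genes tested, 3628 were lower and 6561 higher at 0.04, and 253 lower and 1728 higher at 0.16. Both settings are smaller than the dispersion of the 2 libraries taken as 1 group, whose square root was 0.638. With total counts the log2 ratio changed sign for Il13ra1 (0.11), Il6st (0.16), Il27ra (0.46), Lifr (0.37) and Il20rb (0.32). After subtraction of the median olfactory receptor level it did for Il17rd (-0.071), Il17re (-0.13) and Il1rl1 (-0.56), and for 3 genes at or below that level it could not be computed. DESeq2 size factors left 38 genes called, and the other filters (none, and at least 10 counts in both libraries) 42 and 41. Among all genes tested these settings called 24093 of 30356, 34278 of 50713 and 24447 of 34289. No paired analysis was possible because the labels give a single group. Depth limits the scarcest genes: 0 counts allow up to 0.0429 CPM in library 1 and 0.0710 CPM in library 2.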
